A study of Cicer arietinum with 24 samples.

Results

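The 47 chickpea genes described here had transcripts that were steady and high through the seed stages S2, S3 and S4 and at least 2-fold lower in leaf, at S1, at S6 and at S7. They were 47 of the 25111 genes with an identifier of their own (0.187%). Their expression was measured by RNA-seq in field-grown plants of the large-seeded Cicer arietinum cultivar JGK3, in 7 stages of whole seeds and in leaves, which were taken when seeds were at mid maturation. S1 stands for early-embryogenesis, S2 and S3 for mid- and late-embryogenesis, S5 for mid-maturation and S7 for late-maturation, while S4 and S6 are known here only as the seed stages in between. All groups share the cultivar and the field, and the labels name no treatment of the plants.

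Each group had 3 samples, and the authors deposited 1 FPKM value per gene and group for them. FPKM is the number of sequenced fragments scaled for exon length and for the number of mapped fragments in the library. No spread between replicates and no p-value can therefore be given, and every difference below compares pooled libraries. The number of reads behind a value is unknown, and a value of exactly 0 is described as listed at 0. Differences are given on log2(FPKM + 1), which understates the change of genes with low values, and a limit of 2-fold on this scale is a difference of 1.

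In a young legume seed the embryo, the endosperm and the seed coat develop together. During embryogenesis the embryo divides and takes shape. During maturation the cotyledons expand and are filled with storage proteins and starch, and at the end the seed loses water and its metabolism slows. A whole seed mixes these tissues in proportions that change with age, so that fewer cells of a type and less RNA per cell cannot be told apart in such samples. The identifiers carried no gene names, and 0 of the 25111 matched the RefSeq gene table given for chickpea. Genes are therefore given by identifier, the tissues were not checked against marker genes, and no function is given beyond the process lists of the study.

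The genes were chosen by a score, the smallest log2(FPKM + 1) of S2, S3 and S4 minus the largest of leaf, S1, S6 and S7. A score of at least 1 was needed, with at least 5 FPKM at each of S2, S3 and S4 and a range under 1 among these stages. The values of 7 groups thus chose the genes and are given as a description. S5 was the only group that the choice did not use, although S2, S3 and S4, with which it is compared, were used. The name mid-embryogenesis covers only part of the plateau, which ran from S2 through late-embryogenesis at S3 to S4, and the 47 genes are called plateau genes hereafter.

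Steady expression from S2 to S4 was common, whereas a lower level at S1 was not. Of the 25111 genes, 7956 had at least 5 FPKM and a range under 1 over S2, S3 and S4. Among these steady genes, 1429 (18%) were at least 2-fold lower in leaf, 1931 (24.3%) at S6 and 1913 (24%) at S7, always against the lowest of the plateau stages. A lower level at S1 was found for 146 (1.84%). In all, 731 genes met every condition apart from that on S1, and the plateau genes were 6.43% of them. For the other 684 genes S1 was not 2-fold below the plateau.

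The median level of the plateau genes was 6.95 FPKM at S1, 25.7 FPKM at S2, 30.7 FPKM at S3 and 23.0 FPKM at S4. It was 13.0 FPKM at S5, 0.828 FPKM at S6, 0.327 FPKM at S7 and 1.37 FPKM in leaf. Their summed FPKM was 0.163% of the sum over all 25111 genes at S1, 0.563% at S2, 0.572% at S3, 0.534% at S4 and 0.309% at S5. It was 0.0175% at S6, 0.0113% at S7 and 0.0345% in leaf. The plateau genes were thus a minor part of the summed expression even where they were highest. The mean over S2, S3 and S4 was at least 100 FPKM for 11 genes and under 10 FPKM for 7 genes.

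**Figure D1:**
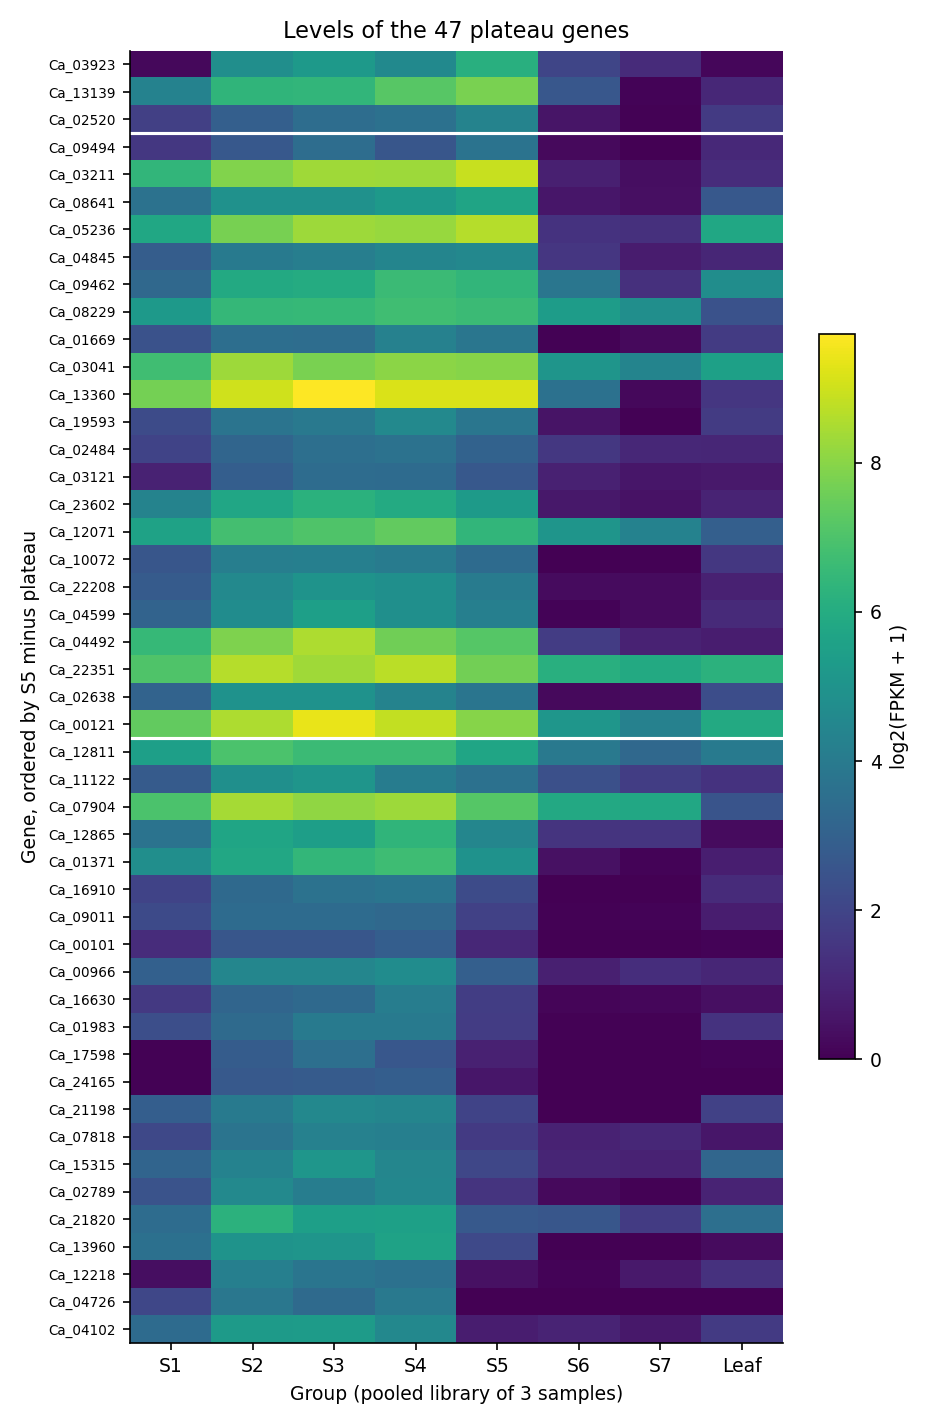
Levels of the 47 plateau genes as log2(FPKM + 1) in each group, 1 row per gene and 1 column per pooled library of 3 samples. Rows are ordered by the difference between S5 and the mean of S2, S3 and S4, and white lines separate the 3 genes at least 2-fold higher at S5 (top), the 22 within 2-fold and the 22 at least 2-fold lower (bottom).

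At the start of the plateau, S2 was at least 2-fold higher than S1 for all 47 genes, as the choice required, against 8.82% of all genes compared. It was 2-fold lower for 0 of them, against 5.9% of all genes compared. The difference between S2 and S1 had a median of 1.49, with a smallest value of 1.03 and a largest of 4.60. It reached 4-fold for 9 genes. Most plateau genes were already present at S1, since 5 genes were under 1 FPKM there and 17 had 10 FPKM or more. S1 was the group closest to the plateau for 39 genes, leaf for 6 and S6 for 2.

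A score of at least 2 was reached by 5 genes, of which 4 were near absent at S1. Ca_24165 had the highest score, 2.68, with 0.0379 FPKM at S1 and 5.66, 5.91 and 6.5 FPKM at S2, S3 and S4. It was at 0.5 FPKM at S5 and listed at 0 at S6, at S7 and in leaf. This gene was low even over the plateau, so that its 2-fold limits rest on few FPKM.

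Ca_03923 (score 2.61) was measured at 0.141 FPKM at S1, 26.8, 36.9 and 23.7 FPKM over the plateau and 69.9 FPKM at S5. It was at 3.06 FPKM at S6 and 1.31 FPKM at S7, with 0.120 FPKM in leaf. It had the largest difference between S2 and S1 of the plateau genes (4.60) and also the highest upward difference between S5 and the plateau (1.26).

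Ca_17598 (2.55) had 0.0311 FPKM at S1, 6.18, 10.8 and 5.27 FPKM over the plateau and 0.856 FPKM at S5. It was listed at 0 at S6 and S7 and had 0.0694 FPKM in leaf. Ca_12218 (2.25) had 0.300 FPKM at S1, 17.4, 12.9 and 11.3 FPKM over the plateau and 0.351 FPKM at S5. Both were thus near absent at S1 and again below 1 FPKM at S5, for Ca_12218 only in the entry used. Its second entry, described below, had 2.15 FPKM at S1 and 4.62 FPKM at S5. In the entry used, the values of Ca_12218 at S6, at S7 and in leaf were 0.0662, 0.593 and 1.59 FPKM.

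Ca_13139 (2.01) differed from these 4 genes in being clearly present at S1, with 19.1 FPKM. It had 80.2, 83.6 and 147 FPKM over the plateau and 217 FPKM at S5. It was at 5.20 FPKM at S6, 0.0678 FPKM at S7 and 1.10 FPKM in leaf, so that S7 was far below S6 as well.

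Among the next 5 genes by score, leaf or S1 set the limit. Ca_21820 (score 1.93) had 9.76 FPKM at S1, 75.4, 43.7 and 45.3 FPKM over the plateau, and 10.7 FPKM in leaf. Ca_05236 (1.90) had 54.4 FPKM at S1, 209, 312 and 301 FPKM over the plateau, and 55.1 FPKM in leaf. In both genes S1 and leaf were close to each other. The later stages separated them, with 5.62 FPKM at S5 for Ca_21820 and 400 FPKM at S5 for Ca_05236.

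Ca_03121 (1.97) was among the lowest, with 0.926 FPKM at S1, 6.52, 9.70 and 9.44 FPKM over the plateau, 5.43 FPKM at S5, 0.876 FPKM at S6 and 0.566 FPKM in leaf. Ca_22208 (1.80) had 5.84 FPKM at S1, 22.7, 30.7 and 27.7 FPKM over the plateau, 15.5 FPKM at S5, 0.219 FPKM at S6 and 0.839 FPKM in leaf. Ca_12865 (1.75) had 12 FPKM at S1, 50.9, 42.9 and 81.6 FPKM over the plateau, 21.2 FPKM at S5, 1.75 FPKM at S6 and 0.211 FPKM in leaf. For these 3 genes S1 was closest to the plateau.

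Most scores were small, with 32 of the 47 under 1.5. Just inside the limit lay Ca_01669 (score 1.00), with 4.53 FPKM at S1 and 10.3, 10.1 and 18.5 FPKM over the plateau, Ca_03041 (1.01) and Ca_09494 (1.01). Just outside lay Ca_24137 (0.99), with 37.5 FPKM at S1 and 75.5, 101 and 91.7 FPKM over the plateau, Ca_21597 (0.97) and Ca_19263 (0.92). No gap in score separated the plateau genes from their neighbours. The range condition also left out genes with larger scores, such as Ca_19703, with a score of 4.60 and a range of 1.07. That gene had 0.647 FPKM at S1 and 44.0, 83.0 and 38.9 FPKM at S2, S3 and S4. In total, 52 genes met the level and score conditions with a range of 1 or more, and 16 met the range and score conditions under the level of 5 FPKM.

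The remaining groups lay farther below the plateau than S1. The plateau mean exceeded S1 by a median of 1.62, S6 by 3.63, S7 by 3.71 and leaf by 2.92. The plateau genes were under 1 FPKM at S6 in 28 cases, at S7 in 31 cases and in leaf in 16 cases. Of all 25111 genes, 12227 reached 1 FPKM at S6, 12152 at S7 and 13608 in leaf. The choice required these groups to be low, so the counts are a description. At both S6 and S7, 26 plateau genes were under 1 FPKM and 6 were listed at 0. However, 9 genes still had 10 FPKM or more at S6, and 7 genes had such a level in leaf.

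**Figure D2:**
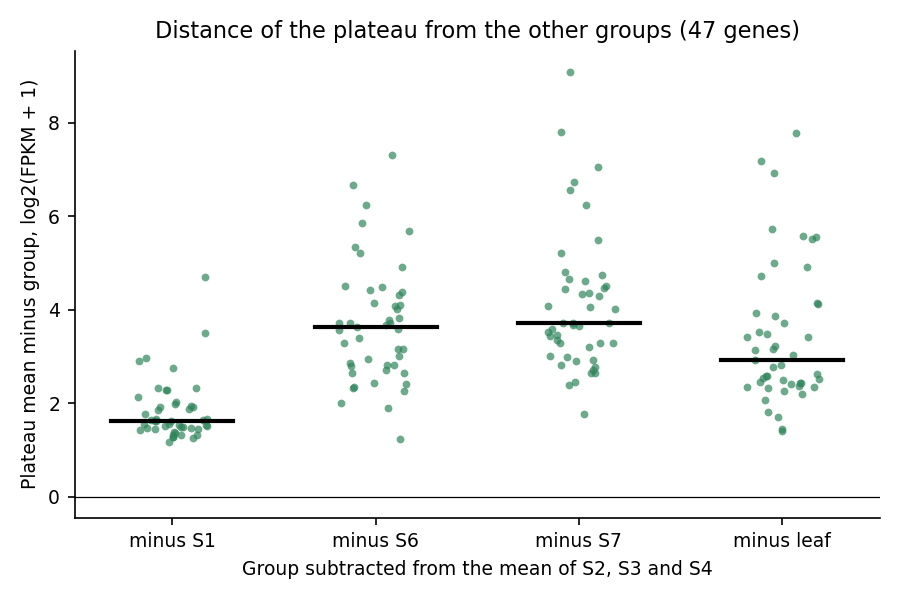
Difference between the mean of S2, S3 and S4 and S1, S6, S7 or leaf, on log2(FPKM + 1), with 1 point per plateau gene and a black line at the median. S1 is closest, with a median of 1.62, and S7 is farthest, with 3.71; all values are above 0 because the genes were chosen so.

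The choice used both S1 and leaf, so that their relation is given as a description. S1 was above leaf for 41 genes and below it for 6. S1 was at least 2-fold higher than leaf for 28 genes (59.6%), against 28.2% of all genes compared and 26.5% of the steady genes. It was at least 2-fold lower for 1 gene (2.13%), Ca_09462, against 26.3% of all genes compared and 19.2% of the steady genes. All genes compared had at least 1 FPKM at S1 or in leaf. Of the 43 plateau genes with such a level, 65.1% were higher at S1 and 2.33% lower. The median difference between S1 and leaf was 1.23 in the plateau genes and 0.22 in the steady genes. Neither of these backgrounds was chosen to be low in leaf, and nothing is read from the difference.

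S7 was at least 2-fold lower than S6 for 3 genes (6.38%), against 3.69% of all genes compared, and higher for 0 genes, against 1.36%. These backgrounds hold genes with at least 1 FPKM at S6 or S7, a level that 21 of the 47 plateau genes reached, and the 3 genes are 14.3% of those 21. Of the steady genes, 1.9% were lower at S7 and 0.452% higher. The 3 genes were Ca_13139, Ca_13360 and Ca_09462. The other 26 plateau genes were under 1 FPKM at both stages, where a 2-fold difference on log2(FPKM + 1) cannot arise.

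The 8 plateau genes with the highest mean over S2, S3 and S4 held 69.1% of the summed mean of all 47. Ca_13360 was highest, with 203 FPKM at S1, 513, 845 and 574 FPKM over the plateau and 577 FPKM at S5. It then had 11.3 FPKM at S6, 0.155 FPKM at S7 and 1.87 FPKM in leaf. Its level at S5 was therefore close to that at S4, and both later stages were far below it.

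Ca_00121 had 165 FPKM at S1, 367, 683 and 454 FPKM over the plateau, 246 FPKM at S5, 33.4 FPKM at S6, 18.2 FPKM at S7 and 58.8 FPKM in leaf. Ca_22351 had 131 FPKM at S1, 404, 322 and 419 FPKM over the plateau, 199 FPKM at S5, 69.5 FPKM at S6, 59.6 FPKM at S7 and 75.2 FPKM in leaf. Ca_07904 had 123 FPKM at S1, 344, 275 and 312 FPKM over the plateau, 143 FPKM at S5, 56.9 FPKM at S6, 55.6 FPKM at S7 and 4.83 FPKM in leaf. These 3 genes were lower at S5 than at each plateau stage and had 18.2 FPKM (Ca_00121) or more at both last stages.

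Ca_03211 had 84.5 FPKM at S1, 233, 324 and 317 FPKM over the plateau and 475 FPKM at S5, against 0.828 FPKM at S6, 0.299 FPKM at S7 and 1.37 FPKM in leaf. Its difference between S6 and S5, -8.03, was the lowest among the plateau genes. Ca_05236, given above, was at 1.66 FPKM at S6, with a difference of -7.24. As deposited, both were thus highest at S5 and at 1.66 FPKM (Ca_05236) or less at the next stage sampled. Their differences between S5 and the plateau were 0.72 for Ca_03211 and 0.57 for Ca_05236. With libraries scaled to the same sum these were 0.20 and 0.04. They were 0.61 and 0.45 with the same upper quartile of FPKM, and 0.75 and 0.60 with libraries scaled by their median ratio over genes. How far S5 lay above the plateau thus depends on the scaling, and the same sum moved it most.

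Ca_03041 had 106 FPKM at S1, 313, 214 and 258 FPKM over the plateau, 248 FPKM at S5, 32.6 FPKM at S6, 19.7 FPKM at S7 and 44.6 FPKM in leaf. Ca_04492 had 91.2 FPKM at S1, 226, 364 and 194 FPKM over the plateau, 140 FPKM at S5, 2.31 FPKM at S6 and 0.732 FPKM in leaf. Among the 8 abundant genes, leaf thus lay between 0.732 FPKM (Ca_04492) and 75.2 FPKM (Ca_22351).

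S5 could separate the plateau genes further, but the stages it is compared with were chosen to be high. The shares below are therefore a description. Compared with the mean of S2, S3 and S4, 22 plateau genes (46.8%) were at least 2-fold lower at S5, 3 (6.38%) were at least 2-fold higher and 22 were within 2-fold. Of all 15642 genes with at least 1 FPKM in either, 14.9% were lower and 11.9% higher. Of the 7956 steady genes, 9.15% were lower and 5.82% higher. The median difference between S5 and the plateau was -0.97 in the plateau genes, -0.09 in all genes compared and -0.02 in the steady genes. At S5, 33 plateau genes (70.2%) were below all of S2, S3 and S4 and 8 (17%) were above all of them, against 36.7% and 34.7% of the steady genes. Of the 1752 steady genes that were at least 2-fold lower at both S6 and S7, 62.4% were below all of them and 16% above.

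The summed FPKM differed between libraries, and scaling them to the same sum moved the median of all genes compared to -0.55 and that of the plateau genes to -1.47. The plateau genes were then below all genes by 0.93, against 0.88 as deposited. Of the 47 genes 32 were then lower at S5, against 28.9% of all genes compared, and 0 were higher, against 7.23%. With the same upper quartile 25 were lower, against 17.6%, and 2 higher, against 10.7%. With the median ratio 21 were lower, against 14.3%, and 3 higher, against 12.5%.

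The steady genes did not have to be low at S6 and S7, the stages that follow S5. Among the 684 genes that met every other condition while S1 was not 2-fold lower, 228 (33.3%) were lower at S5 and 27 (3.95%) were higher, with a median of -0.61. Among the 34 genes that met every other condition while leaf was not 2-fold lower, 11 (32.4%) were lower and 3 (8.82%) higher, with a median of -0.39. Among the 27 genes for which S6 or S7 was not 2-fold lower, 3 (11.1%) were lower and 6 (22.2%) higher, with a median of 0.07. Among the 52 genes that met the level and score conditions with a range of 1 or more, 23 (44.2%) were lower and 8 (15.4%) higher, with a median of -0.50. Among the 16 genes that met the range and score conditions under 5 FPKM, 9 (56.2%) were lower and 1 (6.25%) higher, with a median of -1.21, below that of the plateau genes. The sets of genes chosen to be low at S6 and S7 thus had larger shares lower at S5 than the steady genes. A large share lower at S5 was thus not particular to the plateau genes, and the difference between 46.8% of them and 33.3% of the 684 genes was not tested.

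**Figure D3:**
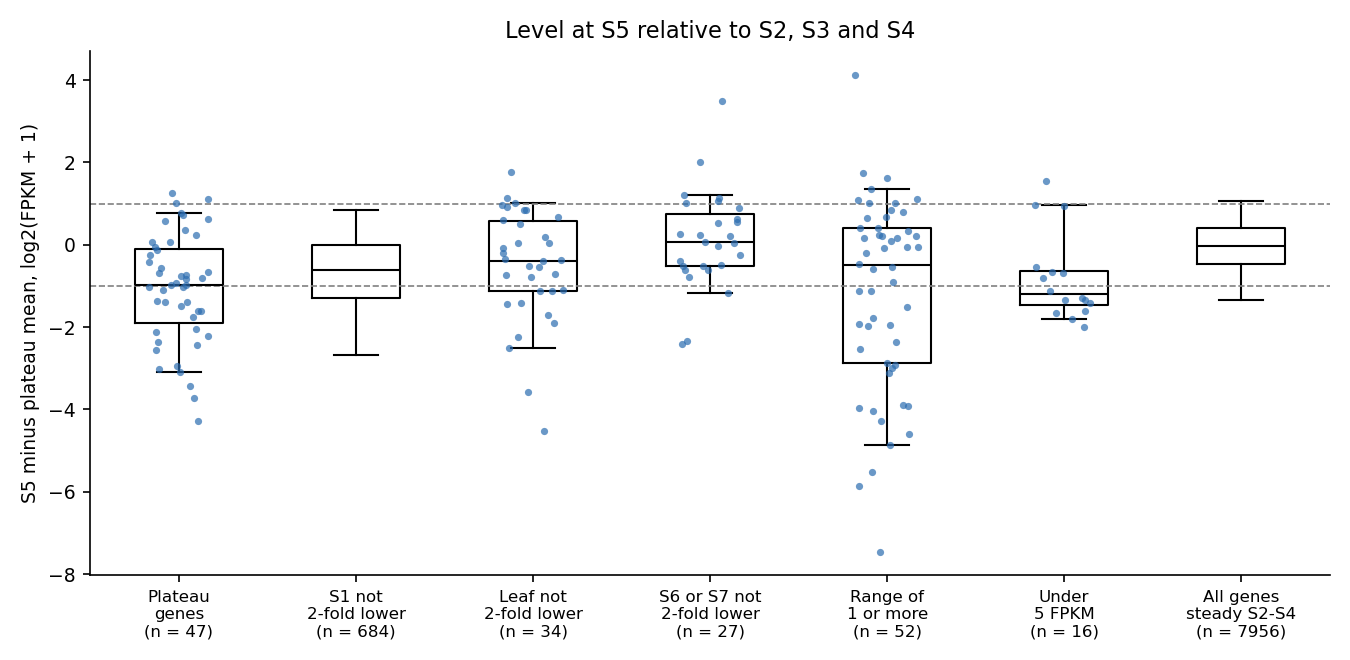
Difference between S5 and the mean of S2, S3 and S4, on log2(FPKM + 1), for the 47 plateau genes (left), 5 sets of genes that missed the condition named under each box and met the others, and all 7956 steady genes (right). Boxes give the quartiles and the median, whiskers the 5th and 95th percentiles, points single genes in sets under 100 genes, and dashed lines the 2-fold limits; the median is -0.97 in the plateau genes and -1.21 in the 16 genes under 5 FPKM.

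The split at S5 was gradual. The difference between S5 and the plateau lay between -4.29 and 1.26, and 6 genes were within 0.15 of the lower 2-fold limit. The 22 genes lower at S5 had a median of 2.77 FPKM at S5 and 18.2 FPKM at S2, and 12 of them were at S5 below their own level at S1. The 22 genes within 2-fold had a median of 44.3 FPKM at S5 and 41.7 FPKM at S2, and by the choice none of them could be below S1. A plateau mean of at least 100 FPKM was found for 2 of the genes lower at S5 and for 8 of those within 2-fold. This difference in level was not tested.

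The 4 genes with the lowest difference at S5 had plateau means between 12.4 FPKM (Ca_04726) and 37.1 FPKM (Ca_13960). Ca_04102 had 9.68 FPKM at S1, 38.3, 39.6 and 22.2 FPKM over the plateau and 0.707 FPKM at S5 (-4.29). It was at 0.958 FPKM at S6, 0.538 FPKM at S7 and 2.13 FPKM in leaf. The level of this gene at S5 was thus as low as at the last stages.

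Ca_04726 had 3.19 FPKM at S1 and 13.6, 9.30 and 14.3 FPKM over the plateau, and was listed at 0 at S5, S6 and S7 and in leaf (-3.72). Ca_12218, near absent at S1 in the entry used, followed with a difference of -3.44. With its 2 entries summed this difference was -1.58, so its place here depends on the entry. Ca_13960 (-3.09) had 11.1 FPKM at S1, 31.2, 32.3 and 47.8 FPKM over the plateau, 3.39 FPKM at S5 and 0.231 FPKM in leaf, and was listed at 0 at S6 and S7. For these 4 genes the difference between S5 and S4 was larger in size than that between S6 and S5. In total, 12 plateau genes (25.5%) were at least 4-fold lower at S5, against 3.51% of all genes compared and 1.71% of the steady genes. Neither background was chosen to be low at S6 and S7. The 4-fold share of genes so chosen was not computed, and nothing particular to the plateau genes is read from this contrast.

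At the other end, 3 genes were at least 2-fold higher at S5 than over the plateau. None of them was with libraries scaled to the same sum, 2 were with the same upper quartile and all 3 with the median ratio. These were Ca_03923 (1.26) and Ca_13139 (1.11), given above, and Ca_02520 (1.02), which had 2.63 FPKM at S1, 6.68, 10 and 11.3 FPKM over the plateau and 19.6 FPKM at S5. Ca_02520 was at 0.461 FPKM at S6, 0.0326 FPKM at S7 and 2.11 FPKM in leaf. Ca_09494 was next, at 0.78, with 2.01 FPKM at S1, 5.32, 10.3 and 5.07 FPKM over the plateau and 12 FPKM at S5. In these 4 genes S5 had the highest level of all groups as deposited, and S6 was at 5.20 FPKM (Ca_13139) or less.

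**Figure D4:**
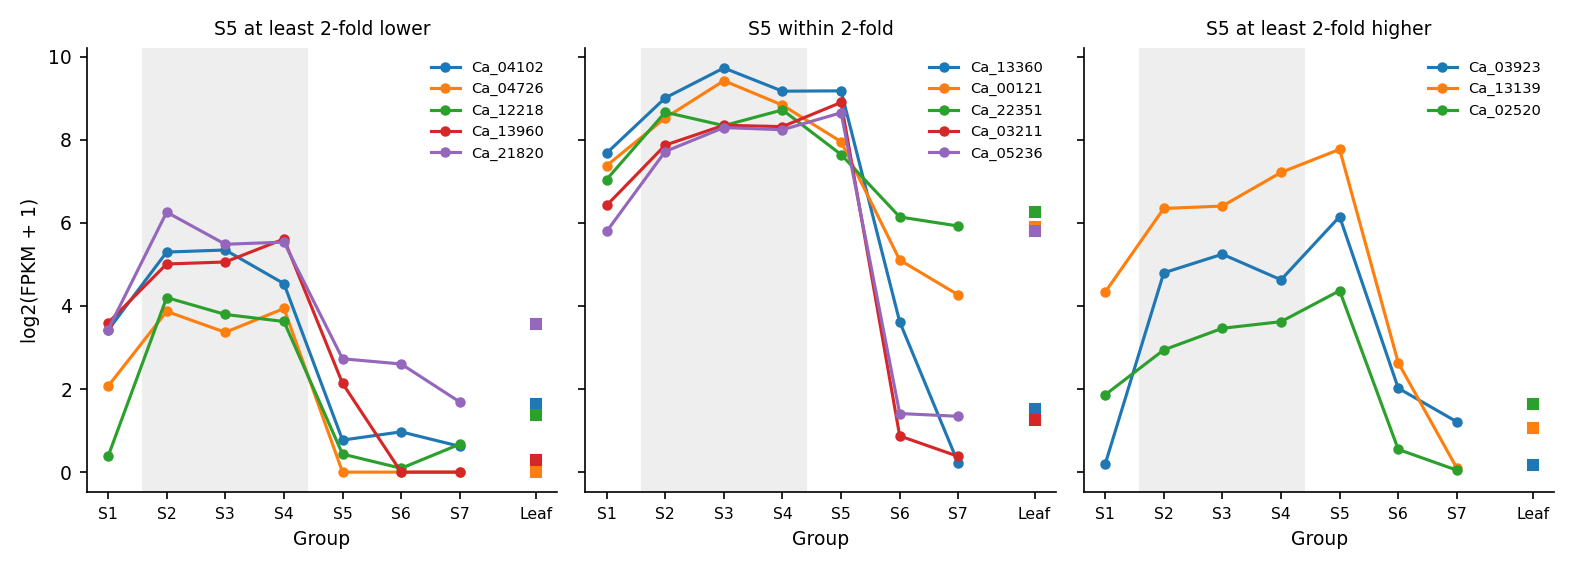
Profiles of 13 plateau genes over S1 to S7 (lines) and in leaf (squares) as log2(FPKM + 1), by their level at S5; the shaded stages S2 to S4 form the plateau. The 5 genes on the left are at least 2-fold lower at S5, the 5 in the middle are within 2-fold and the 3 on the right are at least 2-fold higher, and S6 is at least 2-fold below S5 for the 8 genes in the middle and on the right.

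The lower level of the last stages could be reached in the step to S5, in the step to S6 or in both. S5 was at least 2-fold lower than S4 for 22 genes (46.8%), against 10.9% of all genes compared, and higher for 2 (4.26%), against 8.38%. S6 was at least 2-fold lower than S5 for 40 genes (85.1%), against 30.6% of all genes compared, and higher for 0 genes, against 25.7%. All genes compared had at least 1 FPKM at S5 or S6, a level that 42 plateau genes reached, and the 40 genes are 95.2% of those 42. Of the steady genes, 25.5% were lower at S6 than at S5 and 24.5% higher. Since the choice required high values at S4 and low values at S6, nothing is read from the counts of either step against these backgrounds. In 15 genes (31.9%) both steps were at least 2-fold, in 7 genes (14.9%) the step to S5 alone and in 25 genes (53.2%) the step to S6 alone. Of the 1752 steady genes that were also low at S6 and S7, 16.3% had both steps, 6.56% the step to S5 alone and 71.3% the step to S6 alone. Of the 7 genes, 5 were under 1 FPKM at S5, where a further 2-fold step down cannot arise on this scale. Thus 25 genes were within 2-fold of S4, or higher, at S5 and at least 2-fold lower at S6. Both steps share the S5 library, so that an error in a value at S5 would move them in opposite directions.

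**Figure D5:**
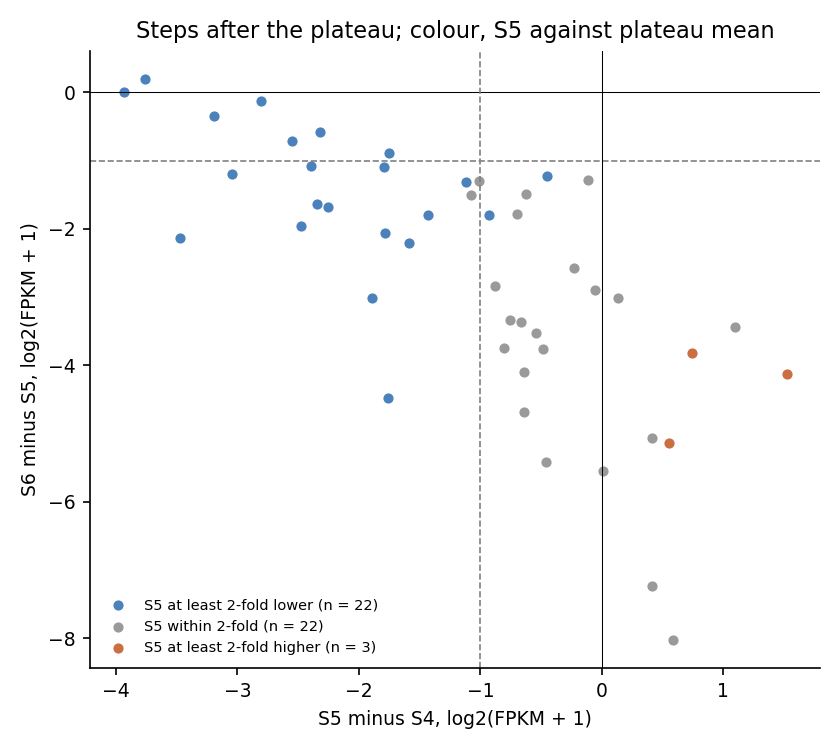
Difference between S5 and S4 (x axis) and between S6 and S5 (y axis) on log2(FPKM + 1) for the 47 plateau genes, coloured by S5 against the plateau mean. Dashed lines mark the 2-fold limit; 15 genes are at least 2-fold lower in both steps, 7 in the step to S5 alone and 25 in the step to S6 alone.

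Within the plateau the differences were kept under 2-fold by the choice. The highest of the 3 stages was S2 for 7 genes (14.9%), S3 for 19 genes (40.4%) and S4 for 21 genes (44.7%), against 30.9%, 33.7% and 35.4% of the steady genes. The median range was 0.58. The flattest profile was that of Ca_09011, with 9.66, 9.46 and 8.79 FPKM at S2, S3 and S4 (range 0.12). The least flat was Ca_11122, with 27.8, 32.3 and 15.8 FPKM (range 0.98). Over all groups as deposited, the highest value was at S2 for 7 genes, S3 for 15, S4 for 17 and S5 for 8.

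The study sorted genes into lists of cell cycle, differentiation, grain filling and desiccation by their gene ontology terms. These lists hold genes with a differentially methylated region and/or differential expression, so part of each was chosen on these libraries and is not independent evidence. On any of the 4 lists were 3 plateau genes (6.38%), against 5.06% of all 25111 genes and 6.05% of the steady genes. The cell cycle list held 2 of them (4.26%, against 1.22% of all genes and 1.43% of the steady genes) and the desiccation list 1 (2.13%, against 0.621% and 0.679%). The differentiation and grain filling lists held 0, against 3.01% and 0.613% of all genes. With counts so small, no list can be called typical of the plateau genes.

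The 2 cell cycle genes were both at least 2-fold lower at S5. Ca_04102, given above, had the lowest difference of all plateau genes. Ca_09011 had 3.58 FPKM at S1, 9.66, 9.46 and 8.79 FPKM over the plateau, 2.64 FPKM at S5, 0.0463 FPKM at S6, 0.0612 FPKM at S7 and 0.730 FPKM in leaf. The desiccation gene was Ca_22351, with 404, 322 and 419 FPKM over the plateau, 69.5 FPKM at S6 and 59.6 FPKM at S7. This gene of the desiccation list had its highest levels well before the last stages, although its level there was the highest among the plateau genes.

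Further lists of the study came from its comparison of JGK3 with Himchana 1, a small-seeded cultivar. They too hold genes with a differentially methylated region and/or differential expression, here between the cultivars, and are not independent evidence. The cell growth list held 1 plateau gene (2.13%, against 0.729% of all genes), Ca_02520, which was among the 3 genes higher at S5. The cell cycle list of this comparison held 1 (2.13%, against 1.04% of all genes), Ca_09011, and its grain filling list 0, against 0.538%. The list of such genes within quantitative trait loci of seed size or weight held 4 plateau genes (8.51%), against 3.74% of all genes and 4.93% of the steady genes. It is thus not a list by position alone. These were Ca_04492, Ca_13960, Ca_11122 and Ca_04599. On at least 1 of all the lists were 8 plateau genes (17.0%), against 8.91% of all genes and 11.3% of the steady genes. These counts were small as well and were not tested.

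Ca_04599 had 7.44 FPKM at S1, 25.7, 43.6 and 27.9 FPKM over the plateau, 17.5 FPKM at S5, 0.0808 FPKM at S6 and 1.24 FPKM in leaf. Ca_11122 had 5.88 FPKM at S1, 27.8, 32.3 and 15.8 FPKM over the plateau, 11.3 FPKM at S5, 4.24 FPKM at S6 and 1.71 FPKM in leaf. Of the 4 genes within these loci, Ca_13960 was lowest at S5 relative to the plateau (-3.09). The others were close to each other, with -1.04 for Ca_11122, -0.84 for Ca_04492 and -0.82 for Ca_04599.

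Of the 47 plateau genes, 6 had a second entry under the same identifier, with a lower mean, which the choice did not use. The second entry of Ca_04492 met the rule on its own, with 2.12 FPKM at S1, 5.94, 12.2 and 6.30 FPKM over the plateau and 1.55 FPKM at S5. That of Ca_19593 had 0.979 FPKM at S1, 3.10, 3.87 and 7.81 FPKM over the plateau and 0.602 FPKM in leaf. That of Ca_21198 had 0.970 FPKM at S1 and 4.91, 4.53 and 35.2 FPKM over the plateau, so that it was above the 20.7 FPKM of the main entry at S4. These 3 entries had their lowest plateau stage at least 2-fold above leaf, S1, S6 and S7.

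The other 3 second entries did not show the plateau. That of Ca_00121 had 0.0343, 0.0737 and 11.6 FPKM at S2, S3 and S4 and 9.12 FPKM at S5. That of Ca_07904 was above 0 at S4 alone (0.228 FPKM). That of Ca_12218 had 2.15 FPKM at S1, 2.55, 3.65 and 3.24 FPKM over the plateau, 4.62 FPKM at S5 and 4.70 FPKM in leaf. For these 6 genes the level depends on the entry taken, and how fragments were divided between entries is not given in the sources used here.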

How the data were processed

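According to the design text, the authors cleaned reads with NGS QC Toolkit, aligned them with TopHat to an annotated chickpea genome and obtained FPKM from Cufflinks. The deposited FPKM tables hold 1 column per group for its 3 samples, and neither the pooling nor the genome version is given in the sources used here. The 8 tables were joined by entry (35234 entries). Entries with a single identifier were kept (26305), and each of 25111 identifiers was represented by its entry of highest mean. The summed FPKM of these genes lay between 673444 (S2) and 2016862 (S7), and the median over genes of the ratio to their geometric mean across the 8 groups lay between 0.925 (leaf) and 1.04 (S2). The depth per library is unknown.

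Levels were set side by side as log2(FPKM + 1), and 2-fold served as the limit. No test was made, because each group has 1 column. Genes named were those with the 10 highest scores, the 8 highest plateau means and the 4 highest and 4 lowest differences at S5, the 3 genes on either side of the score limit, genes on the lists of the study and up to 3 with repeated entries. The other repeated entries, Ca_19703, Ca_09462 and the flattest and least flat profiles were named after their values had been seen. The genes and lists were chosen with earlier results of these data known. Alternatives covered the pseudocount, level, score and range limits, scaling, repeated entries and the libraries in the rule. Calculations used Python 3.11.15, numpy 2.4.6 and pandas 2.3.3 and were tested on simulated data.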

Additional observations from a re-analysis of the deposited data

Results flagged for a closer look

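Entries outside the genes with a single identifier were not used in the report, and 12 of them met the same rule. Of the 1661 entries that join several identifiers, 4 met it (0.241%), and of the 7268 entries with no gene identifier, 8 met it (0.110%). They drew attention because their levels at S2, S3 and S4 were above those of leaf, S1, S6 and S7. The entry that joins Ca_12108 and Ca_12109 had 3.30 FPKM at S1, 29.9, 26.3 and 52.3 FPKM over the plateau, 39.5 FPKM at S5 and 5.28 FPKM in leaf. Among those without an identifier, the highest score (2.57) was that of a locus with 7.94 FPKM at S1, 52.2, 81.9 and 67.8 FPKM over the plateau, 3.66 FPKM at S5 and 3.76 FPKM in leaf. At S5, 4 of the 12 entries were at least 2-fold lower than the plateau and 3 were at least 2-fold higher. The shares over all such entries were not computed, and nothing is read from these counts.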

How the results depend on the processing

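As deposited, there were 47 plateau genes with a median difference of -0.97 between S5 and the plateau, 22 of them lower and 3 higher. Some alternatives stayed near this. A pseudocount of 0.1 gave 45 genes, 20 of them lower (44.4%), and the same upper quartile 56 genes, 28 of them lower (50%). The median ratio gave 42 genes, 19 of them lower (45.2%), and summed entries 46 genes, 21 of them lower (45.7%). Shares over all genes were not computed for every alternative. With a pseudocount of 5 there were 29 genes, 11 of them lower, and with a minimum of 20 FPKM 24 genes, 8 of them lower. Scaling to the same sum gave 78 genes, 44 of them lower. A score limit of 2 left 5 genes with a median of -2.12 and 3 lower. A range under 0.5 left 16 genes, 8 lower and 0 higher. Without leaf in the rule there were 81 genes, 6 of them higher. A 4-fold limit at S5 gave 12 lower and 0 higher. The alternatives on single libraries were chosen after seeing the data. Without the S2 library the cap of 200 genes was reached, with 86 lower and 15 higher. Without S3 there were 84 genes, 37 lower and 7 higher, and without S4 109 genes with a median of -1.95, 73 lower and 6 higher. Without S1 in the rule there were 731 genes with a median of -0.63, 250 lower and 30 higher, and without S6 and S7 74 genes with a median of -0.58 and 9 higher. With the lists of the cultivar comparison, 8 plateau genes were on a list, against 3 without. The median stayed below 0 in each of these. The cause of these moves was not tested. With the same sum, 10 of the 47 genes passed a 2-fold limit at S5 that they had not passed and 3 no longer did. With the same upper quartile 3 newly passed it and 1 no longer did, and with the median ratio 1 no longer did. No paired analysis was possible because each group has 1 pooled column, and single replicates could not be left out for the same reason. The unknown depth limits all values near 0.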
